A study of Mus musculus with 8 samples.

Results

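Cd68 and 8 further genes that mark microglia, Cx3cr1, P2ry12, Tmem119, Aif1, Csf1r, Itgam, Trem2 and Tyrobp, were followed in the hippocampus of XBP1s-TG and Control mice. They are 9 of the 46983 genes in the deposited expression table. Of these, 8 were found by gene symbol and Itgam by its gene ID, because the table lists that symbol on 2 rows. The members were chosen with the XBP1s-TG and Control levels in view: Cd68 because it was among the largest rises, and the others as the microglial genes to set beside it. Their differences between the groups are therefore descriptions, given with standard errors and without a test.

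The table holds 8 RNA-Seq libraries of C57BL/6 mouse hippocampus, 4 from XBP1s-TG mice (genotype TRE-XBP1s;Camk2a-tTA, libraries S1 to S4) and 4 from mice labelled Control (S5 to S8). Mice were 2 months old, and tissue was taken 7 days after doxycycline (Dox) was withdrawn. In XBP1s-TG mice, removal of Dox lets the Camk2a-driven transactivator tTA switch on spliced Xbp1 in forebrain excitatory neurons, so the driver is a neuronal one. In the TRE-XBP1s line, the study mapped the transgene to a single insertion site. No site is given for the Camk2a-tTA transgene, and the labels give no alleles for the Control mice. Levels are in TPM, a measure of transcript abundance scaled for gene length and library size. The mice are separate animals as far as the labels say, and nothing in them ties a table column to a particular animal.

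Microglia are the resident macrophages of the brain and depend on CSF1R signaling for survival. In the resting state they are known for a set of surface receptors, among them P2RY12, CX3CR1 and TMEM119, with which they read signals from neurons and injured cells. CD68 is a heavily glycosylated transmembrane protein of late endosomes and lysosomes, related to the LAMP family, and its staining is widely used as a sign of phagocytic activity in macrophages and microglia. XBP1s, the protein from spliced Xbp1, is a transcription factor of the unfolded protein response, which raises the protein folding and degradation capacity of the endoplasmic reticulum (ER).

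Libraries held 34874431 to 52136032 reads assigned to genes, as recovered from the TPM values, and each member had between 102 and 4911 reads in a library. Xbp1 checked the labels: its level was 549 to 1094 TPM in the XBP1s-TG libraries and 68.9 to 71.9 TPM in the Control libraries. Markers of the choroid plexus, the tissue that makes cerebrospinal fluid and lies against the hippocampus, set S1 and S3 apart. Summed over 15 such genes, the level came to 225 TPM for S1 and 351 TPM for S3, against 4830 to 10754 TPM in the other 6 libraries. Library S1 held 70.1 TPM of Ttr, the most abundant of them, and S3 held 162 TPM, whereas the remaining libraries held 3876 to 8827 TPM. Values that rest on S1 and S3 are therefore also given without them. In whole tissue, fewer cells of a type and less RNA per cell cannot be told apart.

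Cd68 was higher in every XBP1s-TG library than in every Control library. Its level was 120.0 TPM in S1, 86.7 in S2, 162 in S3 and 109 in S4. In the Control libraries it was 13.4 TPM in S5, 16.8 in S6, 14.4 in S7 and 13.6 in S8. The group means were 119 ± 31.7 and 14.5 ± 1.56 TPM (SD, n = 4 each), a ratio of 8.23. These levels rest on 1426 to 2482 reads in the XBP1s-TG libraries and 201 to 278 in the Control libraries. After 2 was added, log2 was taken and the libraries were quantile normalized, the difference was 2.75 (SE 0.18). Without S1 and S3 it was 2.50. The spread between libraries was wider in the XBP1s-TG group, with a coefficient of variation of 26.6% against 10.7%. Of the 9270 genes tested, 8 had a larger log2 difference.

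The Cd68 gene lies at chr11:69664213-69666153 on the minus strand of GRCm38, and no other gene of the table overlaps it. Its RefSeq promoter window, 250 bases before to 50 bases after the start site, is shown with that of P2ry12, the other member whose groups did not overlap, because their levels moved in opposite directions. Capitals mark matches on either strand to CCAAT, the box bound by NF-Y, TGACGT, a part of the cAMP response element, ACGTG, a core bound by XBP1s, and GAGGAA, a core bound by the macrophage factor PU.1. The first line is chr11:69666121-69666420 and the second chr3:59262936-59263235, both minus strand, build GRCm38.p6.
Cd68: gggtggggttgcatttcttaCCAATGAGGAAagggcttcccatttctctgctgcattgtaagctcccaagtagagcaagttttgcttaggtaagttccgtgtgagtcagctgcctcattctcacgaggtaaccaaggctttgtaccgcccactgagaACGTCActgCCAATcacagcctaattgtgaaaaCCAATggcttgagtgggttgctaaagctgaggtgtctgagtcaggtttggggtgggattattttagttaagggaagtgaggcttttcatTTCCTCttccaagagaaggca
P2ry12: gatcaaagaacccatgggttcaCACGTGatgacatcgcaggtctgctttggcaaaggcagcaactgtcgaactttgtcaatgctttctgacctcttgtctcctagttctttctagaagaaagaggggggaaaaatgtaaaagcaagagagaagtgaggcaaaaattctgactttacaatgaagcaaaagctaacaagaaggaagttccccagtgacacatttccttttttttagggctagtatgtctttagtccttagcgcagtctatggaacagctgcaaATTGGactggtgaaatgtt
The Cd68 window held CCAAT at 230, 84 and 60 bases before the start site, TGACGT on the opposite strand at 93 bases before it, and GAGGAA at 225 bases before it. A further GAGGAA lay on the opposite strand, 29 bases past it, and ACGTG was not among the letters of the window. The P2ry12 window held ACGTG on both strands, at overlapping positions 228 and 227 bases before the start site. Of all 32851 promoter windows, 37.4% held CCAAT, 7.51% TGACGT, 19.6% ACGTG and 28.3% GAGGAA. Each match is therefore a description of the letters and not of a bound site. CCAAT and TGACGT were added to the motifs after the Cd68 promoter was seen, so their matches there follow from the choice.

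The other receptors of microglia had lower mean levels in XBP1s-TG than in Control mice. P2ry12 encodes the ADP receptor that steers microglial processes toward injury. Its level was 33.8, 35.6, 33.1 and 33.1 TPM in S1 to S4, and 46.4, 41.0, 40.7 and 45.1 TPM in S5 to S8. Every XBP1s-TG library was below every Control library, with a ratio of means of 0.783 and a normalized log2 difference of -0.45 (SE 0.07). P2ry12 alone among the 8 had groups that did not overlap. Of all genes tested, 13.2% had XBP1s-TG libraries entirely below the Control libraries and 34.1% entirely above, on the same TPM scale. Med12l overlaps P2ry12 on the opposite strand and was at 9.39 to 13.2 TPM over the 8 libraries.

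Cx3cr1 encodes the receptor of fractalkine, a ligand displayed by neurons. Its level was 33.5, 35.1, 36.5 and 31.2 TPM in S1 to S4, and 38.4, 36.1, 34.0 and 39.2 TPM in S5 to S8. The groups overlapped, and the normalized log2 difference was -0.24 (SE 0.08). The Cx3cr1 row spans 5 other genes of the table, of which Gorasp1, a Golgi stacking protein on the same strand, was at 6.32 to 9.998 TPM in the XBP1s-TG libraries and 3.197 to 4.06 TPM in the Control libraries. How reads were shared among these rows is not given in the sources used here.

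Csf1r, the receptor for the survival factors CSF1 and IL-34, was the most abundant member in the Control libraries. Its level was 48.5, 55.3, 56.0 and 52.0 TPM in S1 to S4, and 60.8, 59.6, 55.7 and 52.5 TPM in S5 to S8. The groups overlapped, with a normalized log2 difference of -0.23 (SE 0.06). Hmgxb3 overlaps the end of Csf1r on the opposite strand and was at 36.1 to 40.4 TPM in the XBP1s-TG libraries and 27.2 to 31.1 TPM in the Control libraries. Tmem119, a transmembrane protein used to tell microglia from blood-derived macrophages, was at 20.2, 22.5, 29.6 and 21.1 TPM in S1 to S4. Its Control levels were 26.9, 26.6, 25.8 and 28.8 TPM. S3 was the highest of all 8 libraries and the other 3 XBP1s-TG libraries were below every Control library, for a normalized log2 difference of -0.32 (SE 0.12).

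TYROBP is the adaptor through which TREM2, a lipid-sensing receptor of phagocytic microglia, signals into the cell. Tyrobp was at 38.6, 46.1, 49.1 and 46.6 TPM in S1 to S4 and at 46.8, 55.2, 51.9 and 55.3 TPM in S5 to S8, a normalized log2 difference of -0.33 (SE 0.10). Trem2 was the lowest member in both groups. Its level was 4.35, 4.67, 5.91 and 4.99 TPM in S1 to S4, and 5.43, 5.65, 6.07 and 5.58 TPM in S5 to S8. The difference was -0.19 (SE 0.08), and the groups of both genes overlapped.

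Aif1, which encodes the actin-binding protein IBA1 that is stained to count and outline microglia, was at 6.60, 6.03, 5.47 and 6.99 TPM in S1 to S4. Its Control levels were 7.54, 6.79, 7.15 and 7.64 TPM, and S4 lay within their range. The normalized log2 difference was -0.22 (SE 0.08). Itgam, the alpha chain of complement receptor CR3, was at 7.49, 10.9, 9.33 and 7.51 TPM in S1 to S4 and at 8.77, 12.04, 8.64 and 10.8 TPM in S5 to S8. Its difference of -0.22 (SE 0.16) had the largest error of the 9 relative to its size. Itgam is uncertain also because a second row of that symbol, with another gene ID, overlaps it on the same strand, at 1.65 to 2.59 TPM in the XBP1s-TG libraries and 1.18 to 3.54 TPM in the Control libraries.

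**Figure D1:**
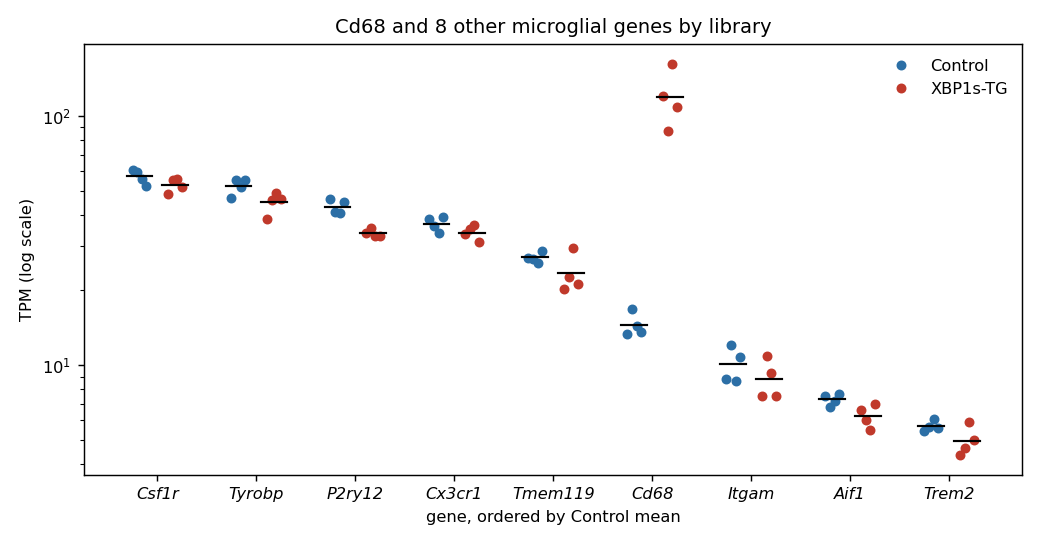
TPM of each gene on a log axis, 1 point per library, Control libraries in blue and XBP1s-TG libraries in red, with a bar at each group mean (n = 4 each). Cd68 goes from 14.5 to 119 TPM on average, while the means of the other 8 genes lie at 0.783 to 0.926 of their Control means.

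The 8 other members thus lay below their Control means together, by -0.45 to -0.19 on the normalized log2 scale, and none passed a 1.5-fold difference. On the TPM scale without normalization all 8 were still lower, by -0.33 to -0.11. The normalization moves the median gene: it lowered the median difference of all genes tested by 0.10, from 0.07 to -0.04. Relative to that median, the 8 genes were lower on both scales. Of the 6 members tested across all genes, 1 met the call rule in the upward direction (Cd68) and 0 in the downward. Over all genes tested, 5.61% met it upward and 2.75% downward. These calls come from the contrast on which the members were chosen, and nothing is read from their count. Aif1, Itgam and Trem2 were under the abundance limit of 14 TPM in every library and were not tested.

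In the Control libraries Cd68 held the 6th place among the 9 genes, below Tmem119 and above Itgam, with no overlap of library values at either boundary. The Control order from the top was Csf1r, Tyrobp, P2ry12, Cx3cr1, Tmem119, Cd68, Itgam, Aif1 and Trem2, and only Csf1r and Tyrobp overlapped as neighbours. In the XBP1s-TG libraries Cd68 took the first place in every library. Below it the order was that of the Control libraries apart from Cx3cr1 and P2ry12, which overlapped at 34.1 ± 2.29 and 33.9 ± 1.17 TPM (SD, n = 4). Csf1r and Tyrobp, and Aif1 and Trem2, overlapped as well.

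Set against the mean TPM of the other 8 members, Cd68 was at 4.98 in S1, 3.21 in S2, 5.77 in S3 and 4.27 in S4. In the Control libraries the same ratio was 0.444, 0.552, 0.500 and 0.443 in S5 to S8. The mean of the other 8 members was 24.1 to 28.1 TPM in the XBP1s-TG libraries and 28.8 to 30.6 TPM in the Control libraries, which did not overlap. On the normalized log2 scale, Cd68 relative to the mean of the 8 differed between the groups by 3.02 (SE 0.18). That mean itself differed by -0.27 (SE 0.06). Without S1 and S3 these values were 2.76 and -0.26.

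Within the XBP1s-TG group Cd68 and the other members did not follow the same order of libraries. Cd68 stood above its Control mean by 2.78 in S1, 2.36 in S2, 3.18 in S3 and 2.67 in S4 on the log2 scale. The mean of the other 8 stood at -0.38, -0.22, -0.19 and -0.31. In S1 and S4 all 8 were below their Control means, and in S2 and S3 7 of the 8. Library S1 was thus second for Cd68 and last for the others. The Xbp1 level, 786, 549, 1094 and 729 TPM in S1 to S4, ranked the libraries as Cd68 did, with S3 first, then S1, S4 and S2. With 4 libraries this order is a description. S3 and S1, the highest for Cd68, were also the libraries low in choroid plexus genes, and the part of that tissue in the Cd68 level was not tested.

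**Figure D2:**
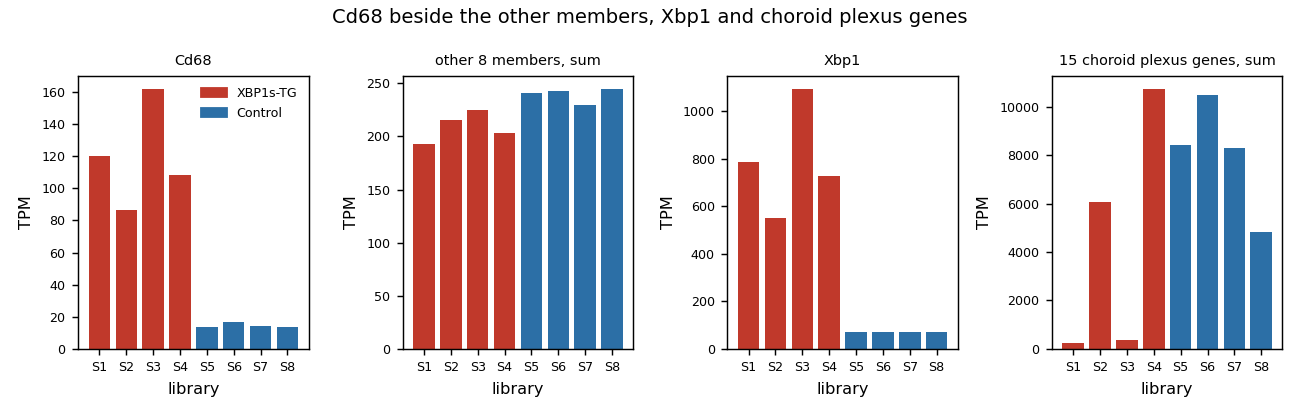
Bars give TPM in each of the 8 libraries (XBP1s-TG red, Control blue) for Cd68, the sum of the other 8 members, Xbp1, and the sum of 15 choroid plexus genes. Cd68 and Xbp1 are highest in S3, the sum of the other members runs from 193 to 225 TPM in XBP1s-TG and 230.0 to 245 TPM in Control, and choroid plexus genes are low in S1 and S3.

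Further genes of microglia and myeloid cells were asked whether any rose with Cd68. The gene lists used here and below were chosen with earlier results of these data known. A gene was called changed at a limma adjusted p under 0.05 with at least a 1.5-fold difference. Over 7 immune lists with 134 genes, 37 were abundant enough to test, of which 0 rose, 2 fell and 35 did not pass. Over all genes tested, 5.61% rose and 2.75% fell by the same rule. Call counts, here and in the later lists, are not read as particular to a list. At an unadjusted p under 0.05, 3 of the 37 were higher and 15 lower. Limma voom on the recovered reads called 0 of the 37 up and 2 down. Over all 9270 genes tested, 2260 were higher and 2729 lower at a limma adjusted p under 0.05 with no fold limit. Counts at an unadjusted p, here and in the later lists, are therefore not read as particular to a list. The largest log2 fold change among the 37 was 0.49. Without S1 and S3, 0 rose and 0 fell.

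In the list of resting microglia, 1 of 9 genes tested fell, 0 rose and 8 did not pass, with a median log2 fold change of -0.19 against -0.04 over all genes. Ltc4s, which makes leukotriene C4, fell. It was at 7.46, 15.1, 7.48 and 17.7 TPM in S1 to S4 and at 18.6, 21.5, 22.3 and 16.4 TPM in S5 to S8, a log2 fold change of -0.78 (SE 0.23, adjusted p = 0.0164). Its low libraries were S1 and S3, those low in choroid plexus genes, and without them its log2 fold change was -0.31 and it was not called. Selplg, a selectin ligand, was at 33.3 ± 2.77 against 37.5 ± 2.20 TPM (limma log2 difference -0.29 with adjusted p = 0.00679, under the fold limit).

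Of the pan-myeloid genes, 1 of 11 tested fell, 0 rose and 10 did not pass, with a median of -0.23. Coro1a, an actin regulator of leukocytes, was at 72.7, 73.3, 67.9 and 71.0 TPM in S1 to S4 and at 98.8, 100.7, 106 and 100.04 TPM in S5 to S8. The groups were far apart relative to their spread, with a log2 fold change of -0.62 (SE 0.05, adjusted p = 9.33e-06), just beyond the fold limit. On the TPM scale without normalization it was -0.50 and not called, and without S1 and S3 it was -0.57 and not called. Which cells of the tissue made the Coro1a RNA was not tested. Ctss, a lysosomal protease, had a log2 fold change of -0.24 and C1qa, a chain of complement C1q, of -0.22. Both had an adjusted p under 0.05 (0.00680 and 0.0370) and neither reached the fold limit. All 20 genes tested in the resting and pan-myeloid lists had a log2 fold change below 0, with a median of -0.22. So had all 6 genes tested of endothelium and pericytes (median -0.18) and all 13 of choroid plexus (median -1.498). Without normalization beyond TPM, 18 of 19 genes tested in the resting and pan-myeloid lists were below 0, with a median of -0.11 where that of all genes was 0.07.

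Of 25 genes known to rise in plaque-associated microglia, 15 were tested and gave no call. By limma and by voom 0 rose and 0 fell, with 2 higher and 2 lower at an unadjusted p under 0.05. The median of the 15 was -0.05. Several of the 15 are also made by neurons and astrocytes. The rest of the list, Gpnmb among them, was under the abundance limit and entered neither fit, so the absence of calls does not cover those genes. Apoe, a lipid carrier of astrocytes and activated microglia, was at 1692 ± 36.5 against 1909 ± 128 TPM (a log2 difference of -0.14 with a limma adjusted p of 0.101). Fth1, the ferritin heavy chain, was at 6702 ± 171 against 6652 ± 253 TPM. Its log2 difference was 0.38 after quantile normalization and 0.01 without it. Ctsd, a lysosomal aspartic protease named after its values were seen, had the largest log2 fold change of the 37 immune genes, 0.49 (SE 0.07, adjusted p = 0.00031), short of the fold limit. It was at 610.3 ± 63.4 against 420.1 ± 22.6 TPM.

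Inflammatory signals were at low levels. Of 20 cytokine, chemokine and activation genes, 11 were under 1 TPM in every library and 1 of them, Il10, was at 0 in all 8. Il18 was the 1 gene tested, at 46.9 ± 4.90 against 35.0 ± 1.72 TPM (limma log2 difference 0.27 with adjusted p = 0.00736, under the fold limit). Tgfb1, which maintains the resting state, was at 6.94 ± 0.585 against 7.04 ± 0.335 TPM (exact two-sided permutation test, p = 0.771). Of the MHC class II genes 2 were tested and 0 were called by limma, while voom called 1 down and both had a negative difference with p below 0.05 before adjustment. H2-DMa, a peptide-loading chaperone, was at 13.2 ± 1.72 against 19.3 ± 1.93 TPM (limma log2 difference -0.57 with adjusted p = 0.00197).

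CD68 is also made by macrophages of the meninges, vessels and choroid plexus and by blood monocytes. No gene of either list reached the limit for testing. The 12 genes of border-associated macrophages summed to 21.5 to 29.4 TPM in the XBP1s-TG libraries and 21.3 to 28.9 TPM in the Control libraries. Maf was at 11.5 ± 0.564 against 12.9 ± 1.05 TPM (p = 0.114) and Stab1 at 4.75 ± 0.964 against 4.64 ± 0.555 TPM (p = 0.857, exact two-sided permutation tests). Of the 12 genes, 6 had a higher mean in XBP1s-TG. Among these, named after their values were seen, were Lyve1 at 1.19 ± 0.273 against 0.562 ± 0.254 TPM (p = 0.0286) and Cd163 at 0.945 ± 0.151 against 0.610 ± 0.166 TPM (p = 0.0571, exact permutation tests). The part of these macrophages in the Cd68 level was not tested. The 18 blood leukocyte genes summed to 3.07 to 7.55 against 4.52 to 14.8 TPM, and 14 of them were under 1 TPM in every library. Trbc2, a T-cell receptor chain, was at 0.883 to 1.31 TPM in the XBP1s-TG and 0.710 to 10.9 TPM in the Control libraries, and S100a9, of neutrophils, at 0.334 to 2.20 against 0.463 to 2.20 TPM.

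Among genes of the lists under the limit, 118 had a value above 0, and 77 of these had a lower mean in XBP1s-TG. At 0.0286, the smallest p that the exact permutation test of 4 against 4 libraries can give, were 9 genes, 4 higher and 5 lower, and the adjusted p over the 118 was 0.375. They are named after their values were seen. C3, the central complement component and source of a CR3 ligand, was at 4.62, 3.27, 6.72 and 3.62 TPM in S1 to S4 and at 0.835, 1.36, 1.15 and 0.844 TPM in S5 to S8. It was the single one of the 9 that limma called when the abundance limit was lifted (log2 fold change 1.04, SE 0.16, adjusted p = 0.00281). Gpnmb, a lysosomal glycoprotein of the plaque-associated microglia list, was at 3.08, 7.03, 4.09 and 3.45 against 1.99, 2.60, 1.98 and 1.85 TPM. Lyve1, of the border-associated macrophage list, and Msr1 were the other 2 with higher levels, and Casp1, H2-Oa, Kcnj8, Pld4 and Ptprc the 5 with lower levels.

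The ligands and signaling partners of the members gave no call. Of 20 listed, 10 were tested and 0 were called by limma or voom, with 1 higher and 4 lower at an unadjusted p under 0.05 and a median of -0.13. Clu, a ligand of TREM2, was at 606 ± 36.9 against 693 ± 44.5 TPM (limma log2 difference -0.21 with adjusted p = 0.0152, under the fold limit). Named after their values were seen, Il34, the CSF1R ligand made by neurons, was at 48.3 ± 1.44 against 64.4 ± 5.49 TPM (log2 fold change -0.52). Cx3cl1, or fractalkine, was at 446 ± 19.3 against 496 ± 23.6 TPM (-0.23). Cd200, a neuronal protein that restrains microglia, was at 113 ± 12.2 against 77.7 ± 1.96 TPM (0.40). Each of these 3 was under the fold limit.

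Genes grouped with Cd68 by its protein were examined next. Of 24 genes of the LAMP family and lysosomal membrane, 22 were tested, of which 2 rose, 0 fell and 20 did not pass, with a median of 0.01. Over all genes tested 5.61% rose, and the 2 of 22 are not read as particular to this list. Before adjustment, 8 were higher and 4 lower with p below 0.05. Tmem175, a lysosomal potassium and proton channel, was at 34.3, 28.8, 37.4 and 29.5 TPM in S1 to S4 and at 16.2, 15.6, 16.8 and 17.7 TPM in S5 to S8 (log2 fold change 0.79, SE 0.09, adjusted p = 8.43e-05). Hgsnat, an acetyltransferase of heparan sulfate breakdown, was at 110.4, 98.0, 111 and 98.9 against 63.3, 62.0, 66.1 and 56.2 TPM (log2 fold change 0.62, SE 0.05, adjusted p = 1.15e-05). Without S1 and S3 its log2 fold change was 0.56, short of the fold limit. Laptm4a, a lysosomal transporter-like protein, was at 512 ± 49.4 against 348 ± 8.62 TPM (0.49, under the fold limit). Lamp1, the founding member of the family, was at 428 ± 13.5 against 384 ± 19.98 TPM (0.06, adjusted p = 0.220).

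Scavenger receptors, a class in which CD68 is also counted, held a single call. Of 18 genes 5 were tested, 1 rose, 0 fell and 4 did not pass, and 1 was higher and 2 lower with p below 0.05 before adjustment. Scarf2, a class F scavenger receptor, was at 80.2, 52.1, 89.4 and 68.4 TPM in S1 to S4 and at 3.44, 3.78, 3.51 and 2.13 TPM in S5 to S8. Its log2 fold change of 3.75 (SE 0.14, adjusted p = 9.10e-07) was above that of Cd68. Scarb2, of the lysosomal membrane, was at 130.2 ± 3.73 against 112 ± 10.1 TPM (0.09, adjusted p = 0.148), and Lrp1, an endocytic receptor, at 99.4 ± 5.69 against 87.3 ± 7.53 TPM (0.07, adjusted p = 0.368).

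**Figure D3:**
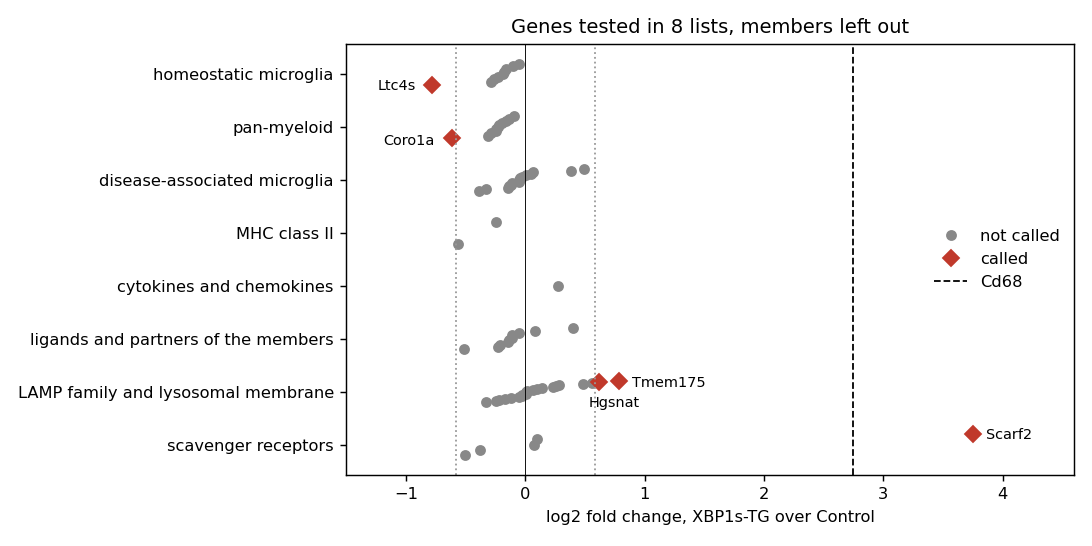
Log2 fold change of every gene tested in 8 lists, 1 point per gene, with called genes as labelled diamonds, dotted lines at the 1.5-fold limits and a dashed line at the Cd68 difference of 2.75. Points of the resting microglia and pan-myeloid lists lie between -0.78 and -0.05, and Scarf2 at 3.75 is the single gene beyond Cd68.

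Markers of other cell types of the tissue gave few calls. Of 11 astrocyte, 8 oligodendrocyte and 6 endothelial genes tested, 0 were called by limma or voom. Before adjustment, the p was below 0.05 for 5 astrocyte genes (2 upward, 3 downward), 0 oligodendrocyte genes and 3 endothelial genes (all downward). The log2 fold change of Slc1a2, the astrocyte glutamate transporter, was 0.01 (adjusted p = 0.912). That of Aldoc, another astrocyte gene, was 0.27, that of the myelin gene Mbp -0.05, that of Cldn5 of endothelial junctions -0.23 and that of Rgs5 of pericytes -0.30. Of 9 neuronal genes 1 fell: Neurod6, a transcription factor of excitatory neurons, was at 109.5 to 188 against 227 to 300.2 TPM (log2 fold change -0.94, SE 0.16, adjusted p = 0.00109). Slc17a7, the vesicular glutamate transporter, had 0.16 and Camk2a -0.32, both under the fold limit. The 13 choroid plexus genes tested gave 0 calls by limma and 4 downward by voom, and 4 lay lower with p below 0.05 before adjustment. Enpp2, of that tissue, was lowest in S1 (133 TPM) and S3 (162 TPM) and reached 746 to 1496 TPM in the other libraries.

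Genes beside Cd68 on chromosome 11 were read for a change of the whole region. Of 18 genes within 50 kb, 10 were under 1 TPM in every library. Of the 8 others, 5 were abundant enough to test. By limma or voom 0 of the 5 were called, where limma called 8.36% of all genes tested. At a limma unadjusted p under 0.05 there were 0 of the 5. In TPM, 3 of the 5 (Eif4a1, Mpdu1 and Fxr2) were higher in every XBP1s-TG library than in every Control library, as were 34.1% of all genes tested. Their log2 differences without normalization were 0.16, 0.19 and 0.13, where the median of all genes was 0.07. Eif4a1, a translation initiation helicase, ends 782 bases upstream of Cd68 on the same strand. It was at 202, 199.6, 202 and 192 TPM in S1 to S4 and at 175, 181, 169.9 and 184 TPM in S5 to S8. The normalized log2 fold change was 0.07 (SE 0.04, adjusted p = 0.192). Mpdu1, of dolichol sugar use in the ER, lies 1570 bases downstream and had 0.06 (SE 0.05, adjusted p = 0.361). Senp3 had -0.001 (SE 0.05), Fxr2 0.01 (SE 0.04) and Sat2 -0.04 (SE 0.08). Under the limit, Tnfsfm13 was at 6.82 to 12.1 against 7.17 to 9.81 TPM (p = 0.686) and Tnfsf12 at 1.13 to 1.61 against 0.638 to 1.84 TPM (p = 0.771, exact two-sided permutation tests). Gm24029 was at 1.16 TPM in S6 and at 0 elsewhere.

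**Figure D4:**
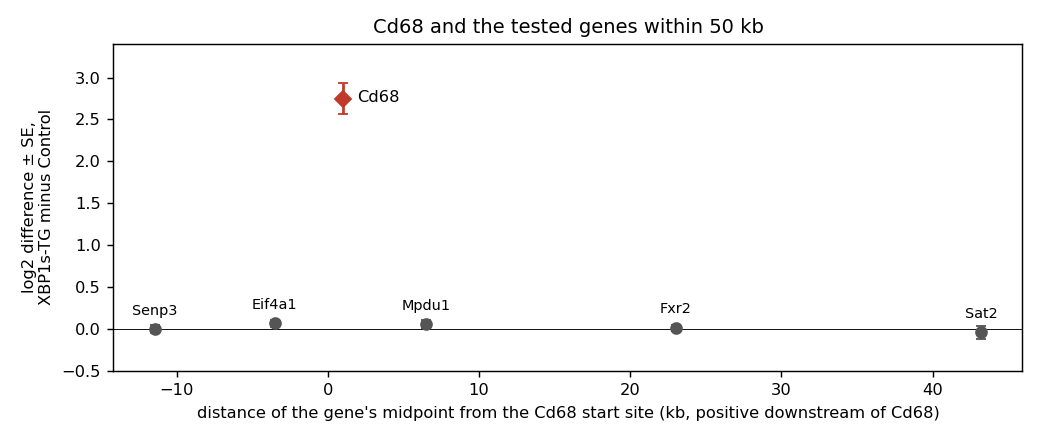
Log2 difference between the groups, with standard errors, against the distance in kb of each gene's midpoint from the Cd68 start site, for Cd68 and the 5 tested genes within 50 kb. Cd68 stands at 2.75 and the 5 neighbours lie between -0.04 and 0.07.

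The genes whose profiles were most like that of Cd68 were not microglial members. Likeness was the root mean square difference of log2 levels, each taken from the gene's own Control mean, over the 8 libraries, and it uses the same contrast that chose Cd68. The 5 nearest were Fkbp14 (0.15), Lpin3 (0.15), Creb3l1 (0.18), Isg20 (0.20) and H2-M3 (0.22), against a median of 1.98 over the other 9269 genes tested. The 5 members tested beside Cd68 lay at 2.12 to 2.28. FKBP14 is an ER prolyl isomerase, LPIN3 a phosphatidate phosphatase, CREB3L1 an ER-anchored transcription factor, ISG20 an RNA exonuclease and H2-M3 a nonclassical MHC class I molecule. Fkbp14 was at 99.99, 78.7, 117 and 95.4 TPM in S1 to S4 and at 10.8, 10.6, 10.4 and 10.3 TPM in S5 to S8. The other 4 averaged 16.4 to 58.7 TPM in XBP1s-TG and 0.888 to 7.57 TPM in Control. S2 was the lowest XBP1s-TG library for Cd68 and for all 5, and S3 the highest. The likeness measure uses the value of each library, so this shared order follows in part from how the 5 were chosen. Adding 2 before taking logs understates the change of genes as low as Lpin3 and Isg20, whose ratios of mean TPM were 17.6 and 18.4 against 8.23 for Cd68.

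**Figure D5:**
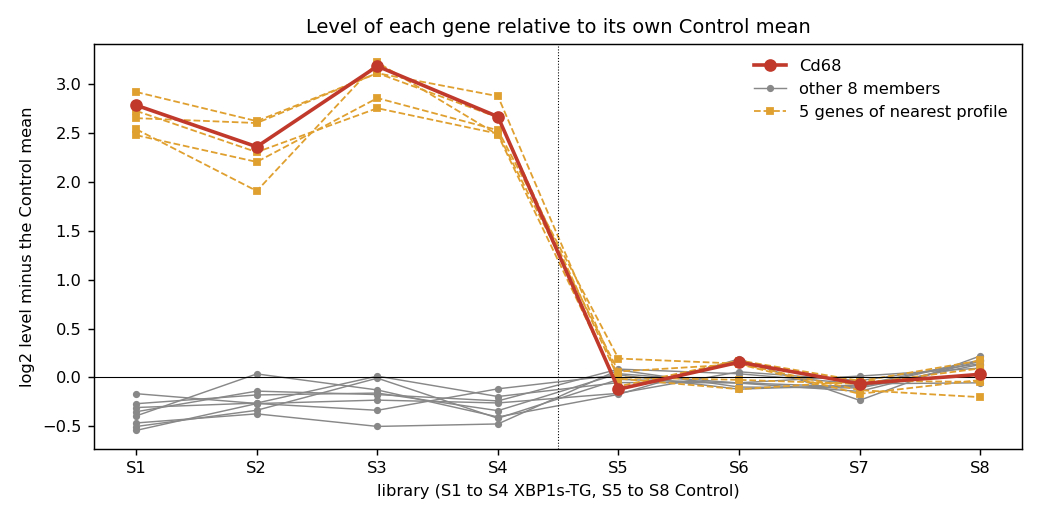
Normalized log2 level minus the gene's own Control mean in each library, for Cd68 (red), the other 8 members (grey) and the 5 genes of nearest profile (dashed). Cd68 lies between 2.36 and 3.18 in S1 to S4 while the mean of the other 8 members lies between -0.38 and -0.19.

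Promoter windows were found for 6 of the 9 members and, with more than 1 start site for some genes, for 4 of the 5 genes of nearest profile. ACGTG was in 1 of the 6 member windows (P2ry12) and in 4 of the 8 windows of the nearest genes, 1 each of Fkbp14, Lpin3, Isg20 and H2-M3, against 19.6% of all windows. GAGGAA was in 4 of the 6 member windows, those of Cd68, Aif1, Itgam and Trem2, and CCAAT in 4, those of Cd68, Cx3cr1, P2ry12 and Trem2. TGACGT was in that of Cd68 only among the 6. Because TGACGT was added after the Cd68 promoter was seen, nothing is read from this. CCACG, the last part of the ER stress element, was in 1 of the 6 member windows (Aif1) and in 5 of the 8 windows of the nearest genes, against 32.8% of all windows. Both windows of Lpin3 are among the 5. In Fkbp14, Lpin3 and Isg20 some CCACG matches share bases with ACGTG matches, so the counts of the 2 motifs are not independent. Windows of Eif4a1 and Mpdu1, which lie beside Cd68 and were not called, were searched as well. That of Eif4a1 (log2 fold change 0.07) held ACGTG as well as TGACGT and also CCAAT. That of Mpdu1 (0.06) held TGACGT as well as GAGGAA but lacked ACGTG. Neither held CCACG. Whether any of these motifs acts on its gene was not tested.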

How the data were processed

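Hippocampal RNA of 4 XBP1s-TG and 4 Control mice was sequenced from stranded mRNA libraries made from 500 ng of total RNA. Per the labels and methods, reads passed FastQC and Trimmomatic (HEADCROP 12), were mapped to GRCm38 and enumerated per gene of annotation 83 in CLCbio Genomics Workbench. Values were deposited by the authors as TPM, scaled within each library, not log transformed. The table's own group means, fold changes and p-values were not used.

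Genes with a TPM above 0 in any library were pedestalled by 2, log2 transformed and quantile normalized. Of these, 9270 exceeded 4 (14 TPM) in some library and entered limma 3.58.1 in R 4.3.3 (lmFit, eBayes with trend, Benjamini-Hochberg adjustment). A call needed both 1.5-fold and adjusted p below 0.05. Log2 fold changes are on the log2(TPM + 2) scale. Genes under the limit had an exact two-sided permutation test. The methods named an unequal-variance test and a floor at an unstated limit, both tried as alternatives. The fit was tested on simulated data. Whole reads were recovered from the TPM values for 29237 of the 29237 genes above 0, within 0.001 of a whole number. p-values measure the spread between these samples.

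Members and gene lists were chosen with earlier results of these data known. Named genes were the members, called genes of each list (4 at most), its 2 most abundant others, genes near Cd68 at 1 TPM or more, the 5 nearest profiles, Xbp1 and Ttr. Of the genes this rule names, 2 are not reported here. TGACGT and CCAAT were added to the motifs after the Cd68 promoter was seen.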

Additional observations from a re-analysis of the deposited data

Results flagged for a closer look

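Of 62 groups of 4 libraries examined for a library far from the other 3, 2 were marked, where chance marks about 1 group in 20. Lpin3, one of the genes whose profile was nearest to Cd68, was at 27.3 TPM in S3 and at 18.1 to 19.1 TPM in the other 3 XBP1s-TG libraries, a gap of 0.893 of the range. Gm24029, upstream of Cd68, was at 1.16 TPM in S6 and at 0 in the other 3 Control libraries, a gap of 1 of the range. No member and no ratio of Cd68 to the other members was marked.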

How the results depend on the processing

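No paired analysis was possible because the columns of the table carry no replicate numbers. Cd68 and the mean of the other 8 members kept their opposite directions under every alternative run. The log2 difference of Cd68 was 2.59 to 2.88 with each library left out in turn, Cd68 relative to the other members 2.90 to 3.17 and the mean of the others -0.31 to -0.23. The log2 ratio of mean TPM with no pseudocount gave 3.04 for Cd68. Without S1 and S3, chosen after seeing the data, Cd68 relative to the others was 2.76, and without normalization beyond TPM the mean of the others was -0.18. Raising values below 4 to 4 set the differences of Aif1, Itgam and Trem2 to 0 by construction.

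The 520 genes up and 255 down became 709 and 150 without normalization beyond TPM, 407 and 152 without S1 and S3, 2260 and 2729 with the adjusted p alone, and 455 to 594 and 191 to 333 with each library left out. The 2 immune genes down became 1 without normalization beyond TPM, with no filter, with the stricter filter, with values below 4 raised to 4 and with the unequal-variance test, 0 without S1 and S3, and 1 to 3 with each library left out (Coro1a was lost without S3, at -0.58). With the adjusted p alone, 3 immune genes were higher and 14 lower, and of the lysosomal and scavenger receptor genes 9 were higher and 6 lower. Those up numbered 3, and 3 to 4 with each library left out. The cause was not tested. Ltc4s was not called with no filter (-0.78), with values raised to 4 (-0.40) or by the unequal-variance test (-0.78), nor Coro1a by voom (-0.56). Depth limits the genes with few reads, such as Aif1 at 102 to 191 a library.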
